A study of Rattus norvegicus with 45 samples.

Results

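Male rat pups whose dams had received a mixture of bisphenols were compared with male pups whose dams had received bisphenol A alone, across all genes measured in the medial preoptic area on postnatal day 10. The mixture group, 150 µg/kg Mixed BP, held 6 libraries and the group given 50 µg/kg BPA held 5, together 11 of the 45 libraries of the series. BPA is bisphenol A. The mixture combined it with its analogs BPS (bisphenol S) and BPF (bisphenol F) in equal parts, so that, with parts taken by mass, the dose of BPA was the same in each group and the mixture added BPS and BPF to it. The total dose of bisphenol therefore also differed, at 150 against 50 µg/kg, and the added compounds and the larger total dose cannot be told apart in this contrast. Dosing ran from gestation day 8 to birth, and the labels describe no dosing of the pups. The other groups were corn oil alone and 50 µg/kg Mixed BP, which also contained all 3 bisphenols. Each library came from 1 pup of 1 litter, with the litter read from the library name, and no litter gave more than 1 male. Dams were assigned to an exposure by cage pair, and the labels do not say which litters shared a cage.

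The medial preoptic area lies at the front of the hypothalamus and is known for its part in male sexual behaviour, parental behaviour and the control of hormone release. In rats its wiring is set around birth by estradiol that is made locally from testicular testosterone, and nuclear receptors for steroid hormones are present there at that age. BPA binds the estrogen receptors weakly and estrogen-related receptor gamma strongly. BPS and BPF are analogs used in place of BPA: BPS joins the phenol rings through a sulfonyl group and BPF through a methylene bridge, where BPA has a carbon with a pair of methyl groups.

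RNA was measured by 3' Tag-seq, which counts reads near the 3' end of each transcript, so that the count of a gene does not scale with the length of its transcript. The 11 libraries held from 4888326 to 6740045 counts, and their scaling factors lay between 0.985 and 1.02. Levels are given below as CPM, the usual scaling of counts to a common library size, after adjustment by TMM, a method that trims genes of extreme ratio before setting the scale. The Y-linked genes Kdm5d, Uty and Eif2s3y were read in all 11 libraries, with log2 differences of 0.01, 0.10 and -0.02 between the groups. Of 15 marker genes for the preoptic area and hypothalamus, 8 passed the filter on low counts. Their median counts were uneven, at 846 for Zfhx3 and 260 for Six3 but 29 for Nkx2-1 and 23 for Trh. Whether the markers with the most counts are particular to this tissue was not tested. The other 7 of the 15 did not pass. Hmx3 and Otp had 0 counts in all 11 libraries, Hmx2 and Six6 in 10, and Gal, the gene of the neuropeptide galanin, had a median of 3 counts. The tissue was bulk, so that fewer cells of a type and less RNA per cell cannot be told apart in any value below.

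No gene passed the test between the mixture and BPA alone. Of 18426 genes tested, 0 (0%) reached an adjusted p of 0.05 in edgeR's quasi-likelihood test, and 0 did so in DESeq2 or in limma with sample weights. At an unadjusted p under 0.05 there were 792 genes (4.30%), of which 398 (2.16%) were at a larger value after the mixture and 394 (2.14%) at a smaller one. A p spread evenly from 0 to 1 would put 921.3 genes in that interval. Without BPA replicate 5 the count was 1269, and without any other single library it lay between 570 and 1081, with 0 genes called each time. Over all tested genes 9367 log2 differences (mixture minus BPA) were above 0 and 9059 below, with a median of 0.00. All 6 mixture libraries lay outside the range of all 5 BPA libraries for 69 genes (0.374%), above it for 31 (0.168%) and below it for 38 (0.206%).

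**Figure D1:**
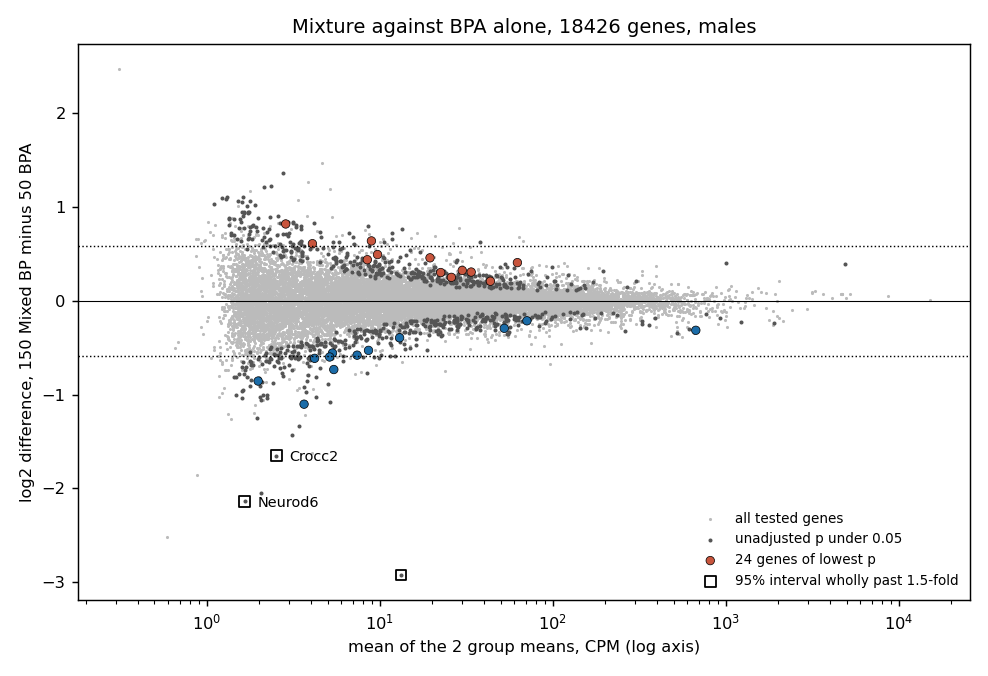
Each point is a gene, with the mean of the 2 group means on a log axis in CPM and the log2 difference (150 µg/kg Mixed BP minus 50 µg/kg BPA, 6 against 5 male libraries) on the vertical axis. Filled circles mark the 24 genes of lowest p, red above 0 and blue below, dotted lines mark 1.5-fold, and squares mark the only 3 genes whose 95% interval lay wholly past 1.5-fold; none of the 18426 genes passed the test.

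The spread between libraries sets what such a comparison could have shown. The standard error of the log2 difference had a median of 0.13 over the 18426 genes. The 95% intervals stayed inside 1.5-fold in either direction for 73.6% of genes and inside 2-fold for 93.8%. The share within 1.5-fold was 95.7% of the 2215 genes over 100 CPM, 93.5% of the 9537 genes from 10 to 100 CPM and 37.9% of the 6656 genes from 1 to 10 CPM. A difference larger than 1.5-fold was thus outside the interval for most genes over 10 CPM, while for most genes of 1 to 10 CPM the interval reached past 1.5-fold on at least one side, so that such a difference is not excluded.

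The 12 genes of lowest p on each side are described next as values, since the adjusted p of each was 0.967. Their unadjusted p ran from 0.000278 to 0.00455, and because they were chosen by that p their separation is no support for a difference. Among the 12 at a larger value after the mixture, the ratio of mixture to BPA ran from 1.16 to 1.77, and among the 12 at a smaller value from 0.466 to 0.863. The groups did not overlap for 12 of the 24 genes, 5 of the first kind and 7 of the second. Summing brother and sister per litter, which left 5 litters a group, gave log2 differences over 1.5 times smaller for 22 of the 24, the exceptions being Ifi27 and Ptpn3. Hspb1 went from 0.82 to 0.34 in that fit, Baiap2l1 from 0.61 to 0.22, Tceanc from -0.86 to -0.37 and Nkain4 from -0.39 to -0.14.

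The gene of lowest p, rnf141, encodes a RING finger protein. It was at 4.79, 7.99, 7.41, 5.68 and 9.28 CPM in the 5 BPA libraries, and its lowest, median and highest values in the 6 mixture libraries were 9.06, 11.00 and 13.1 CPM. The highest BPA library lay just above the lowest mixture library, and the log2 difference was 0.64 ± 0.15 (SE). Cox15, which makes the heme A that cytochrome c oxidase needs, was at 28.6, 31.8, 28.8, 30.5 and 31.2 CPM after BPA, and its lowest, median and highest mixture values were 34.2, 36.9 and 40.2 CPM. All mixture libraries were above all BPA libraries for Cox15, with a log2 difference of 0.31 ± 0.08 (SE). The corn oil mean of Cox15 was 37.9 CPM and the mean at 50 µg/kg Mixed BP was 35.9 CPM, so both lay nearer the mixture mean than the BPA mean.

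Of the other 10 genes at larger values after the mixture, 4 had groups that did not overlap. Hspb1, a small heat shock protein, was at 3.08, 2.78, 1.60, 1.57 and 1.18 CPM after BPA with lowest, median and highest mixture values of 2.86, 3.40 and 5.79 CPM. It had the largest ratio of the 12, 1.77, and mixture replicate 4 stood above the rest of its group. Without that library the log2 difference of Hspb1 was 0.65, against 0.82 with it. Ifi27, an interferon-inducible gene, had means of 16.5 ± 3.28 CPM after BPA (SD, n = 5) and 22.6 ± 3.37 CPM after the mixture (SD, n = 6), and Tnfrsf1a, the type 1 receptor for tumour necrosis factor, had means of 7.20 ± 0.484 CPM after BPA (SD, n = 5) and 9.77 ± 1.20 CPM after the mixture (SD, n = 6). The groups overlapped for Ifi27 and did not for Tnfrsf1a. Hid1, which acts in the maturation of dense-core secretory vesicles, had means of 53.8 ± 6.93 CPM after BPA (SD, n = 5) and 71.2 ± 8.83 CPM after the mixture (SD, n = 6), and the Golgi membrane gene Yipf1 had 26.7 CPM after BPA and 33.3 after the mixture. Both overlapped between groups. The remaining 5 were Syap1 (log2 difference 0.25), Cyb5r1 of the cytochrome b5 reductase family (0.49), the actin regulator Baiap2l1 (0.61), the translation initiation subunit Eif3i (0.21) and the endomannosidase-like Maneal (0.30).

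Of the 12 genes at smaller values after the mixture, Orai3 had the lowest p. It encodes a subunit of store-operated and arachidonate-regulated calcium channels. Its levels were 10.4, 7.99, 8.21, 8.81 and 8.89 CPM after BPA, with lowest, median and highest mixture values of 5.33, 5.64 and 7.74 CPM. Every mixture library was below every BPA library, and the log2 difference was -0.58 ± 0.14 (SE). The corn oil mean of Orai3, 8.52 CPM, lay nearer the BPA mean. Robo2, a receptor for the axon guidance cue Slit, was the most abundant of the 24 by counts, at 823, 702, 731, 809.7 and 654 CPM after BPA and with lowest, median and highest mixture values of 533, 579 and 681 CPM. The ranges of Robo2 overlapped, with a log2 difference of -0.31 ± 0.09 (SE), and its corn oil mean of 550.1 CPM lay below both. The related receptor Robo1 had a log2 difference of -0.10 ± 0.17 (SE) at an unadjusted p of 0.540 in the same edgeR fit.

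**Figure D2:**
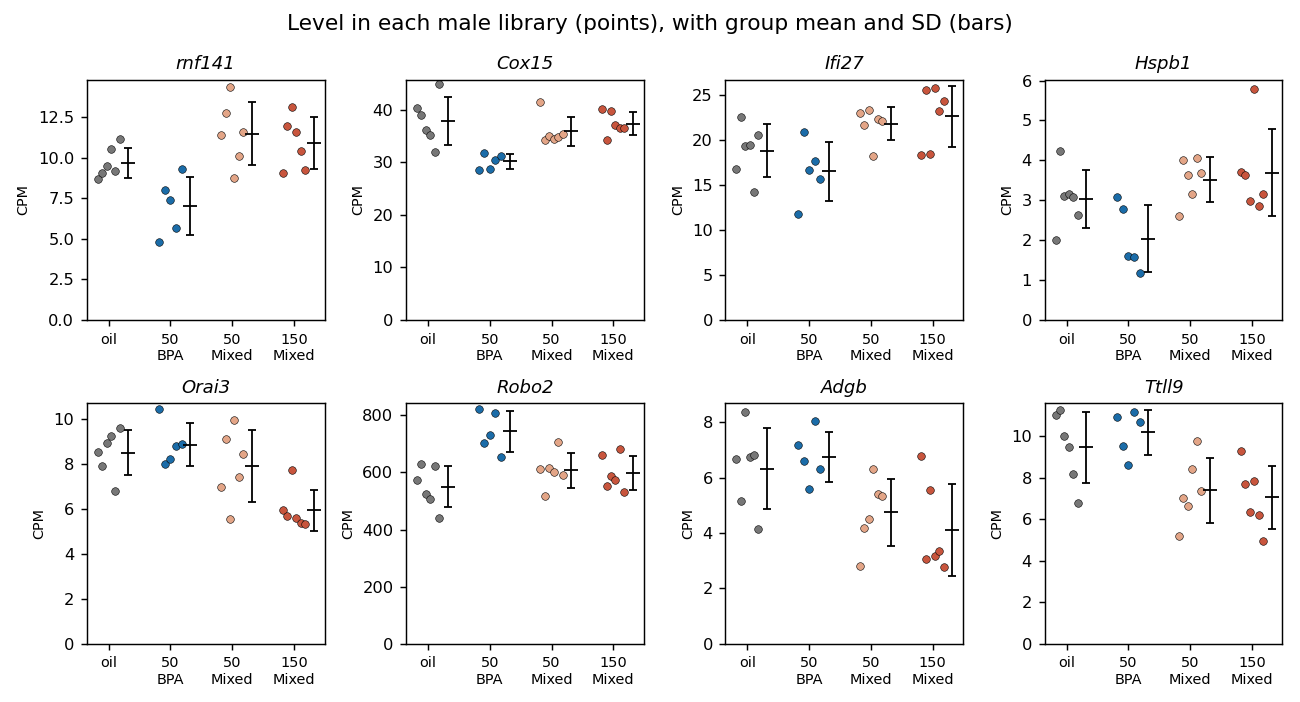
Points are the CPM of single male libraries for 8 of the 24 genes of lowest p, by exposure (corn oil, 50 µg/kg BPA, 50 and 150 µg/kg Mixed BP), with the group mean and SD as bars and axes that start at 0. For Cox15 and Orai3 the 6 libraries at 150 µg/kg Mixed BP do not overlap the 5 BPA libraries, while for rnf141, Ifi27, Hspb1, Robo2, Adgb and Ttll9 they do.

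The ratio furthest from 1 among the genes at smaller values belonged to Myb, a transcription factor of proliferating progenitors, at 3.42, 6.43, 3.003, 7.83 and 4.34 CPM after BPA with lowest, median and highest mixture values of 1.49, 2.08 and 3.71 CPM. Its groups overlapped, and its log2 difference was -1.10 ± 0.31 (SE). Cenpl, a centromere protein, had means of 6.20 ± 1.46 CPM after BPA (SD, n = 5) and 4.07 ± 0.581 CPM after the mixture (SD, n = 6), and Sfr1, which acts in homologous recombination, had 76.2 CPM after BPA and 65.7 after the mixture. Ttf2, which releases RNA polymerase from its template, had means of 5.10 CPM after BPA and 3.32 after the mixture, and Tceanc, which shares a domain with a transcription elongation factor, had 2.58 CPM after BPA and 1.40 after the mixture. The mixture and BPA libraries did not overlap for Cenpl, Ttf2 or Tceanc. Fam184a (-0.29), the tyrosine phosphatase Ptpn3 (-0.56) and Nkain4 (-0.39), whose product binds a subunit of the sodium pump, likewise had no overlap, the values in brackets being log2 differences. The remaining genes were Adgb, the globin androglobin, with 7.18, 6.60, 5.61, 8.03 and 6.32 CPM after BPA and lowest, median and highest mixture values of 2.76, 3.27 and 6.80 CPM, and Ttll9, a tubulin polyglutamylase in mice, with 10.9, 9.55, 8.61, 11.2 and 10.7 CPM and 4.93, 7.03 and 9.27 CPM in the same order. Both overlapped between the groups.

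The corn oil mean lay between the BPA and mixture means for 20 of the 24 genes, and it was nearer the mixture mean for 13 of the 24. The mean at 50 µg/kg Mixed BP was nearer the 150 µg/kg Mixed BP mean than the BPA mean for 18 of the 24. The genes were chosen because their BPA and mixture means lay apart, so the mean of another group tends to fall between them. The counts thus describe group means and carry no test.

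The gene lists that follow are described by counts and medians, which were sensitive to single libraries. Members of a list can rise and fall together between libraries, so a count of members is not a count of separate observations. Leaving out 1 library moved 29 of the 32 list medians by over 1.5 times or turned their sign (11 turned), the exceptions being the lists for motile cilia, DNA methylation and mitochondrially encoded proteins. Summed littermates did so for 27 of the 32, and the level of striatal markers as a covariate, chosen after the values had been seen, for 26. The 26 include the striatal list itself, from whose members that covariate was made.

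Receptors through which bisphenols are known to act showed no called difference. Esrrg, the estrogen-related receptor that BPA binds strongly, was at 125, 168, 174, 133 and 140.0 CPM after BPA with lowest, median and highest mixture values of 105, 146 and 181 CPM. The groups overlapped throughout, and the log2 difference was -0.02 ± 0.15 (SE), with a 95% interval from -0.33 to 0.28 and a sign that turned in 6 of the 21 alternatives. Esr1, the gene of estrogen receptor alpha, was at 15.4, 13.2, 15.2, 15.1 and 13.8 CPM after BPA with lowest, median and highest mixture values of 10.05, 10.98 and 15.1 CPM. In 5 of the 6 mixture libraries Esr1 was below all BPA libraries, and in mixture replicate 3 it lay within their range. Its log2 difference was -0.35 ± 0.12 (SE), at an unadjusted p of 0.00569 and an adjusted p of 0.967 in edgeR, and the difference was -0.18 with summed littermates. The corn oil mean of Esr1 was 13.7 CPM.

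The other members of this receptor list had wider intervals or smaller differences. Esr2, estrogen receptor beta, had 3.35 CPM after BPA and 4.01 after the mixture, with a 95% interval of the log2 difference from -0.21 to 0.72. The progesterone receptor gene Pgr had 8.99 CPM after BPA and 10.3 after the mixture and an interval from -0.17 to 0.61. A value 1.5-fold larger after the mixture lay inside the intervals of both. Nr3c1, the glucocorticoid receptor, had a narrower spread, with means of 80.3 ± 3.29 CPM after BPA (SD, n = 5) and 71.1 ± 5.09 CPM after the mixture (SD, n = 6) and a log2 difference of -0.17 ± 0.07 (SE). Esrra and Esrrb, the other estrogen-related receptors, had log2 differences of 0.05 ± 0.15 (SE) and -0.23 ± 0.19 (SE). In all, 4 of the 9 tested members were above 0 and 5 below, with a median of -0.02. The nuclear receptor coregulators had 6 of 11 above 0 with a median of 0.01. The genes of bisphenol and estrogen metabolism and of the aryl hydrocarbon response had 11 of 18 above 0 with a median of 0.02 and 0 at an unadjusted p under 0.05.

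Genes of motile cilia were at smaller values after the mixture than after BPA in most members, without a called gene. Motile cilia in this tissue belong to the ependyma, the cell layer that lines the third ventricle and moves cerebrospinal fluid, and the list also serves as a marker list for ependymal tissue in the sample. Of 13 tested members 12 were below 0 and 1 above, with a median log2 difference of -0.36, beside 9059 of 18426 below and a median of 0.00 over all genes. Hydin, part of the central apparatus of the ciliary axoneme, was at 11.8, 14.9, 12.2, 17.2 and 12.8 CPM after BPA with lowest, median and highest mixture values of 5.23, 10.4 and 11.7 CPM. Its groups just failed to overlap, and its log2 difference was -0.59 ± 0.21 (SE). Foxj1, the transcription factor that switches on motile cilia genes, was at 2.91, 2.61, 1.20, 3.52 and 2.57 CPM after BPA with lowest, median and highest mixture values of 0.934, 1.47 and 2.17 CPM. BPA replicate 3 lay among the mixture libraries, and the log2 difference of Foxj1 was -0.82 ± 0.31 (SE). The Foxj1 means were 1.41 CPM in corn oil and 1.28 CPM at 50 µg/kg Mixed BP. Both lay nearer the mixture mean of 1.45 CPM than the BPA mean of 2.56 CPM. Dnah5, a dynein arm motor, had means of 16.6 ± 2.12 CPM after BPA (SD, n = 5) and 13.3 ± 1.26 CPM after the mixture (SD, n = 6) and a log2 difference of -0.32 ± 0.12 (SE).

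The summed level of the ciliary list overlapped widely, from 144 to 194 CPM in the BPA libraries and from 127 to 174 CPM in the mixture libraries. The median of the list lay between -0.41 and -0.24 when each of the 11 libraries was left out in turn, and it was -0.15 with brother and sister summed per litter. In that fit Hydin was at -0.28, Dnah5 at -0.20 and Foxj1 at -0.61. In females the list had 3 of 13 above 0 and a median of -0.05. The list holds 2 genes that did not pass the filter on low counts, Spag6 and Mcidas. Whether the amount of ventricular lining in the dissected samples differed between libraries was not tested.

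Promoter sequence was examined for the ciliary genes because factors of the RFX family act with Foxj1 at such promoters, through a motif called the X-box. RefSeq promoters of build GRCr8, from 250 bases before to 50 after the start site, were matched for 10 of the 13 tested ciliary genes. The X-box half-site GTTGCC, sought on both strands and chosen after the values had been seen, occurred in 2 of these 10, in 12.2% of all 33469 promoters and in 12.8% of the promoters of tested genes. Only these exact letters were sought. Variants of the motif were not counted, so a promoter without a match may still hold one. The promoters that held it belonged to Hydin, with the first base of the match at -6, and to Tekt1, a filament protein of the axoneme, at -39 from the start site used in that table. A stretch of 120 bases of each is shown with the half-site in capitals, for Hydin at chr19:55146396-55146515 on the plus strand, where the match reads on the opposite strand, and for Tekt1 at chr10:57479072-57479191 on the minus strand.
Hydin: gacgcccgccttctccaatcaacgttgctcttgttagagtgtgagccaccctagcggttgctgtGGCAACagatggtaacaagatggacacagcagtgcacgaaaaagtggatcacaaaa
Tekt1: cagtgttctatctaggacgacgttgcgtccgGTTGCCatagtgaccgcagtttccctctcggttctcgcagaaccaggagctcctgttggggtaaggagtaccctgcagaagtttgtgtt
Hydin had a log2 difference of -0.59 and Tekt1 one of -0.01, so the 2 genes that share the half-site differed in value. For the 24 genes of lowest p, 20 promoters were matched. The half-site AAGGTCA, which estrogen-related receptors bind, occurred on neither strand of these 20, beside 4.61% of all promoters and 3.06% of the promoters of tested genes. At shares this low, 20 promoters often hold none, so its absence here says little. The X-box half-site occurred in 5 of these 20 (25%), beside the shares of 12.2% and 12.8% given above. Whether that share differs from the others was not tested.

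Markers of neighbouring brain regions varied widely between libraries, and 0 of them were called. The striatum, the septum and the cholinergic basal forebrain lie near the medial preoptic area, and a dissected sample can take in parts of them. The labels do not say how the tissue was cut. Of 15 striatal markers 14 were below 0 and 1 above, with a median log2 difference of -0.29 and 0 at an unadjusted p under 0.05. The median ran from -0.44 without mixture replicate 6 to -0.16 without mixture replicate 2. It was -0.44 without BPA replicate 5, -0.18 without BPA replicate 3 and -0.19 without mixture replicate 4. Their summed level ran from 2059 to 3682 CPM after BPA and from 1408 to 3422 CPM after the mixture, so the groups overlapped. The 8 tested preoptic and hypothalamic markers summed to 263 to 310 CPM after BPA and to 258 to 386 CPM after the mixture, with Zfhx3 holding the most counts. How much of each sample was striatum and how much preoptic area was not tested. Foxp1 and Meis2, transcription factors of striatal projection neurons, had log2 differences of -0.35 ± 0.29 (SE) and -0.28 ± 0.21 (SE). With the striatal marker level as a covariate the median of the ciliary list was -0.37, and 0 genes were called. The median of the striatal list was -0.02 in that fit. The covariate is the mean level of these same markers, so a striatal median near 0 follows from its construction and is no result.

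Of 12 markers of the basal forebrain and septum 7 were above 0 and 5 below, with a median of 0.39. That median was -0.04 with the striatal covariate, and over single left-out libraries it ran from 0.16 without mixture replicate 4 to 0.64 without BPA replicate 5, with 0.21 without mixture replicate 2 and 0.25 without BPA replicate 2. The choline transporter Slc5a7 had 20.8 CPM after BPA and 29.3 after the mixture, and its log2 difference of 0.50 was 0.25 with the covariate, while the Zic transcription factors of the septum lay between -0.17 and 0.00 in log2 difference. Summed levels of this list were 169.6 to 286 CPM after BPA and 165 to 385 CPM after the mixture. Of 15 markers of pericytes, fibroblasts and meninges 13 were above 0, with a median of 0.25, sums of 319.8 to 871 CPM after BPA and of 434 to 964 CPM after the mixture, and 0 at an unadjusted p under 0.05. The pericyte median was 0.11 without BPA replicate 4 and 0.16 without mixture replicate 6. How far the makeup of the samples bears on single genes was not tested beyond the striatal covariate, which moved none of the 24 genes of lowest p by over 1.5 times.

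**Figure D3:**
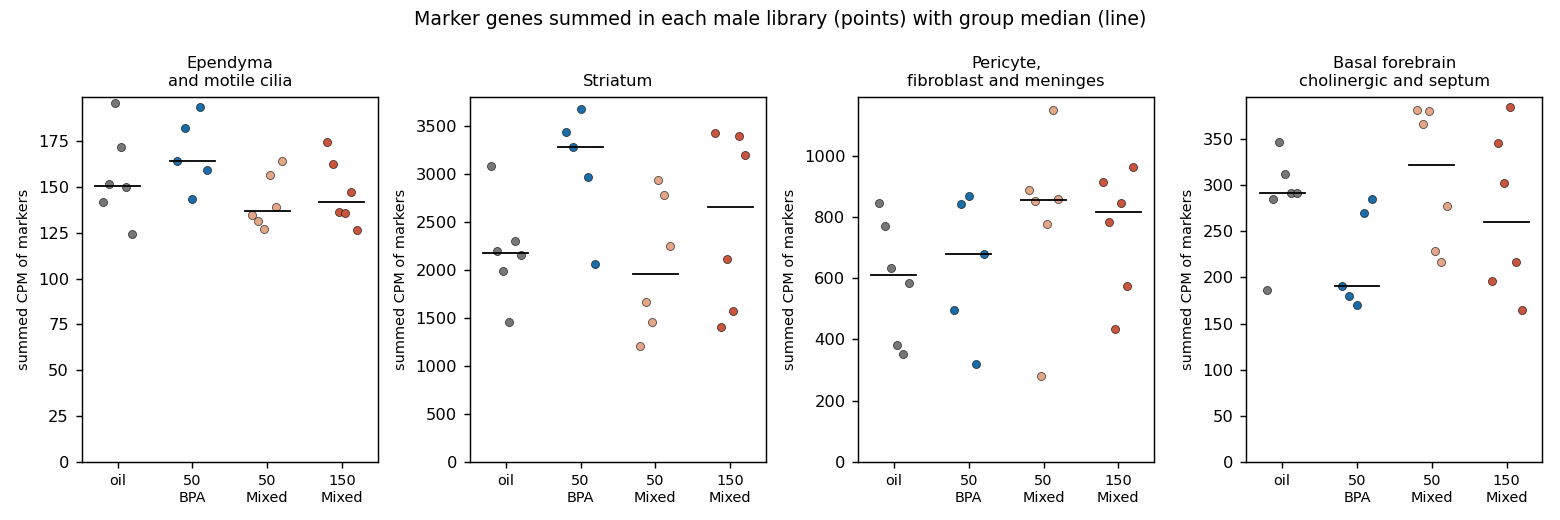
Points are the summed CPM of 4 marker lists in single male libraries, by exposure, with the group median as a line and axes that start at 0. In each panel the 6 libraries at 150 µg/kg Mixed BP overlap the 5 BPA libraries, and the striatal sums range from 1408 to 3422 CPM within the mixture group alone.

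The 95% interval lay wholly past 1.5-fold for 3 genes, of which Crocc2 and Neurod6 are described, picked out after their values had been seen. Crocc2, a gene related to rootletin, was at 3.93, 5.56, 1.80, 5.09 and 2.76 CPM after BPA with lowest, median and highest mixture values of 0.560, 1.25 and 1.85 CPM. Its groups overlapped, and its log2 difference was -1.65 ± 0.51 (SE), against -0.46 with summed littermates and 0.16 in females. Neurod6, a transcription factor of excitatory cortical neurons, was at 1.88, 3.13, 1.80, 5.68 and 1.18 CPM after BPA with lowest, median and highest mixture values of 0.199, 0.551 and 1.18 CPM. Its groups met at the edge without overlap, with a log2 difference of -2.14 ± 0.73 (SE) that was -1.35 with summed littermates. Values this low rest on few counts, and both genes passed the low-count filter through libraries outside the mixture group. A gene near the floor that is tested for that reason tends to be lower after the mixture. These differences are therefore no support for an effect. In corn oil males Neurod6 ran from 0 to 4.80 CPM and Crocc2 from 0.189 to 4.19 CPM, each overlapping both groups. Slc17a7, the vesicular glutamate transporter of cortical neurons, had 3.30 CPM after BPA and 0.804 after the mixture. It too passed the filter through libraries outside the mixture group. Of the 8 tested markers of thalamus and cortex, 5 were below 0 and 3 above, with a median of -0.39 that was -0.11 without BPA replicate 2.

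In males most genes of mitochondrial respiration were at slightly larger values after the mixture than after BPA, without a called gene. All 13 protein genes of the mitochondrial genome were above 0, with log2 differences from 0.07 to 0.13 and a median of 0.10. These 13 are cut from shared precursor transcripts, so they are not 13 separate observations. Their summed level overlapped, from 21088 to 25720 CPM after BPA and from 21965 to 27172 CPM after the mixture. ND4, a subunit of complex I, had means of 3156 ± 184 CPM after BPA (SD, n = 5) and 3405 ± 264 CPM after the mixture (SD, n = 6), a log2 difference of 0.11 ± 0.09 (SE). Of the 76 nuclear genes of oxidative phosphorylation 59 were above 0 and 17 below, with a median of 0.04. An unadjusted p under 0.05 was reached by 5, all of them above 0, beside 4.30% of all tested genes. Sdha, the catalytic subunit of succinate dehydrogenase, had 34.1 CPM after BPA and 41.2 after the mixture, and Atp5pd, a subunit of ATP synthase, had 256 CPM after BPA and 283 after the mixture. The intervals of all 76 lay within 1.5-fold. When brothers and sisters were summed per litter the count was 32 above 0, with a median of -0.01, and with the striatal covariate it was 40 above 0. In females 16 of the 76 were above 0, with a median of -0.03. Of the 13 mitochondrially encoded genes 7 were above 0 in females, with a median of 0.003.

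Cytosolic ribosomal proteins, another group of abundant housekeeping genes, had 16 of 56 above 0 and 40 below, with a median of -0.02. All 56 intervals lay within 1.5-fold. Of 24 genes of cholesterol synthesis and handling 20 were above 0, with a median of 0.09. The median was 0.04 without mixture replicate 4, 0.05 without mixture replicate 2 and 0.06 without BPA replicate 3. With summed littermates 14 were above 0 with a median of 0.01, and in females 9 of the 24 were above 0. Stard4, which carries cholesterol between membranes, had means of 9.19 ± 1.001 CPM after BPA (SD, n = 5) and 11.00 ± 1.55 CPM after the mixture (SD, n = 6) and a log2 difference of 0.26 ± 0.13 (SE).

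Genes that write, erase or read DNA methylation had 15 of 18 values below 0, with a median of -0.11. Apex1, an endonuclease of base excision repair, had the lowest p of them at 22.00 CPM after BPA and 18.97 after the mixture. The de novo methyltransferase Dnmt3a had 400.4 CPM after BPA and 383 after the mixture and a 95% interval from -0.17 to 0.04, and the maintenance enzyme Dnmt1 had 32.1 CPM after BPA and 33.5 after the mixture and an interval from -0.11 to 0.23. Of 28 imprinted genes 21 were above 0, with a median of 0.07, led in p by Ndn, the gene of the neuronal growth suppressor necdin, at 282 CPM after BPA and 327 after the mixture. Among thyroid hormone genes 12 of 14 were below 0, with a median of -0.16 and 0 at an unadjusted p under 0.05. Dio2, the deiodinase that activates thyroid hormone, had 8.18 CPM after BPA and 5.59 after the mixture, and the receptor Thrb had 86.8 CPM after BPA and 63.3 after the mixture, each with overlapping groups. With the striatal covariate the thyroid median was -0.10, Dio2 went from -0.58 to -0.36 and Thrb from -0.46 to -0.26. The summed level of the thyroid list was lowest in mixture replicates 2, 3 and 4 within that group, as was the striatal sum. Without mixture replicate 2 the thyroid median was -0.09 with 9 of 14 below 0, and without BPA replicate 3 it was -0.10.

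Of the 24 glutamate receptor genes 16 were below 0, with a median of -0.09. An unadjusted p under 0.05 was reached by 5, 4 of them below 0, beside 4.30% of all tested genes. The median was -0.05 without mixture replicate 2 and lay between -0.12 and -0.02 over all alternatives. In females 16 of the 24 were above 0, with a median of 0.02. Grin2c, an NMDA receptor subunit, had means of 11.9 ± 3.87 CPM after BPA (SD, n = 5) and 7.95 ± 2.33 CPM after the mixture (SD, n = 6), and Grm5, a metabotropic receptor, had 1315 CPM after BPA and 1123 after the mixture. With summed littermates the log2 difference of Grm5 went from -0.23 to -0.10 and that of Grin2c from -0.61 to -0.46. Among GABA and glycine genes 14 were above and 14 below 0, and Gabra5, a GABA-A receptor subunit, had the lowest p at 109 CPM after BPA and 97.4 after the mixture. The activity-induced gene Arc had 2.65 CPM after BPA and 1.43 after the mixture, in a list with 15 of 23 members below 0 and a median of -0.16. Over single left-out libraries that median ran from -0.33 without mixture replicate 6 to -0.05 without mixture replicate 4, and with summed littermates it was 0.01 and Arc went from -0.91 to -0.18. Of 38 axon guidance genes 17 were above 0, with Nrp2, a semaphorin receptor, at 173 CPM after BPA and 216 after the mixture, opposite in sign to Robo2. Peptides and receptors of preoptic and social behaviour had 16 of 30 above 0 and a median of 0.05, with 0 at an unadjusted p under 0.05. Calcr, the calcitonin receptor known from parental behaviour circuits in rodents, had 18.7 CPM after BPA and 27.3 after the mixture and a 95% interval of its log2 difference from -0.24 to 1.38. Its log2 difference of 0.57 was 0.13 with the striatal covariate, 0.30 without mixture replicate 2 and 0.25 with summed littermates.

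**Figure D4:**
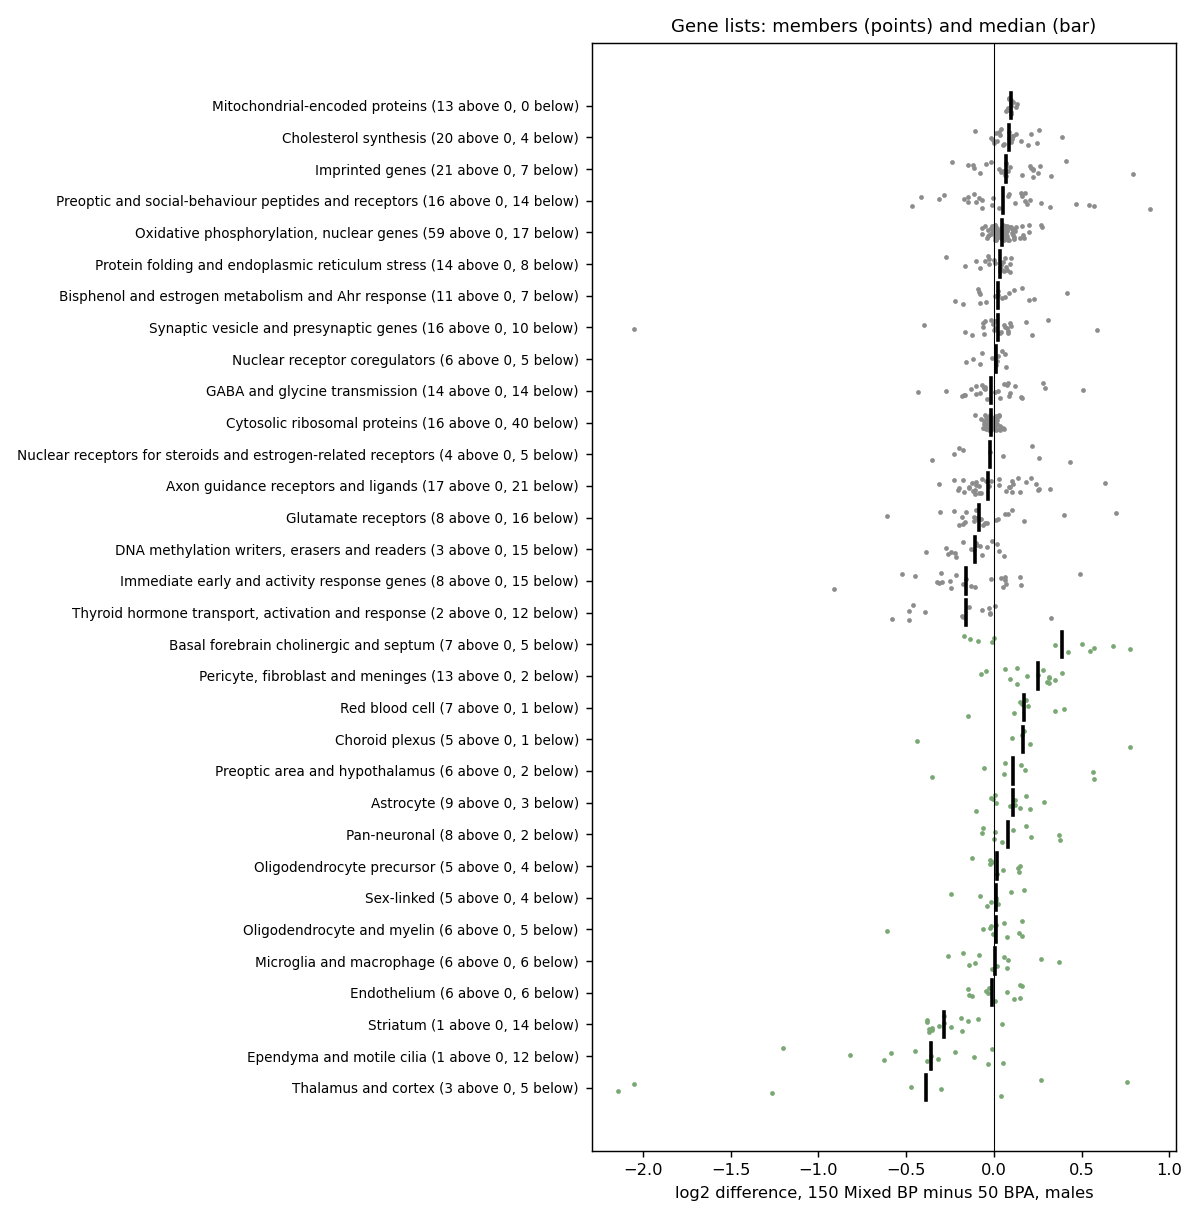
Points are the log2 differences (150 µg/kg Mixed BP minus 50 µg/kg BPA, males) of the tested members of 32 gene lists, pathways in grey and cell or region markers in green, with the median of each list as a bar. Most medians lie within 0.2 of 0, the ciliary, striatal and thalamus and cortex lists lie lower, and the basal forebrain and pericyte lists lie higher; 0 members of any list were called.

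The same contrast was run in females, with 5 mixture and 6 BPA libraries. Here 10 litters gave both a male and a female, so the sexes are not separate sets of dams. In females 0 of 18354 genes (0%) were called by edgeR, and 417 (2.27%) had an unadjusted p under 0.05, 200 above 0 (1.09%) and 217 below (1.18%). Across the 18137 genes tested in both sexes, which are not independent of each other, Pearson's r of the log2 differences was 0.11. Of the 24 genes of lowest p in males 16 had the same sign in females, and 1 had an unadjusted p under 0.05 there. That gene was Orai3, with the opposite sign: its level was 6.86, 6.95, 6.10, 8.15, 6.12 and 8.19 CPM in the 6 BPA females and 9.36, 6.46, 9.69, 9.12 and 9.31 CPM in the 5 mixture females, a log2 difference of 0.31. All but 1 of the 5 mixture females lay above all 6 BPA females. With brother and sister summed per litter, the log2 difference of Orai3 was -0.15 and that of rnf141 was 0.25.

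The difference between the male and the female effect was tested in 1 fit over all 45 libraries. It called 0 of 19026 genes (0%) in edgeR, with 520 (2.73%) at an unadjusted p under 0.05, 261 above 0 (1.37%) and 259 below (1.36%), and it called 0 in DESeq2. Orai3 had the lowest p, 3.53e-05, with a male minus female difference of -0.89 ± 0.19 (SE) and an adjusted p of 0.671. Over the alternatives, litter as a random block among them, that adjusted p ran from 0.371 to 1. The other genes named by this test were Eno3, a muscle enolase, Trmt2a, a transfer RNA methyltransferase, and Epb42, a red cell membrane protein, each with an adjusted p of 0.99966. In the female contrast the lowest p belonged to Rlbp1, a retinoid carrier, with a log2 difference of -0.44, and the other genes named were Tns3 at -0.32, the neuropeptide gene Npff at 0.66 and Alas1, the first enzyme of heme synthesis, at 0.35.

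**Figure D5:**
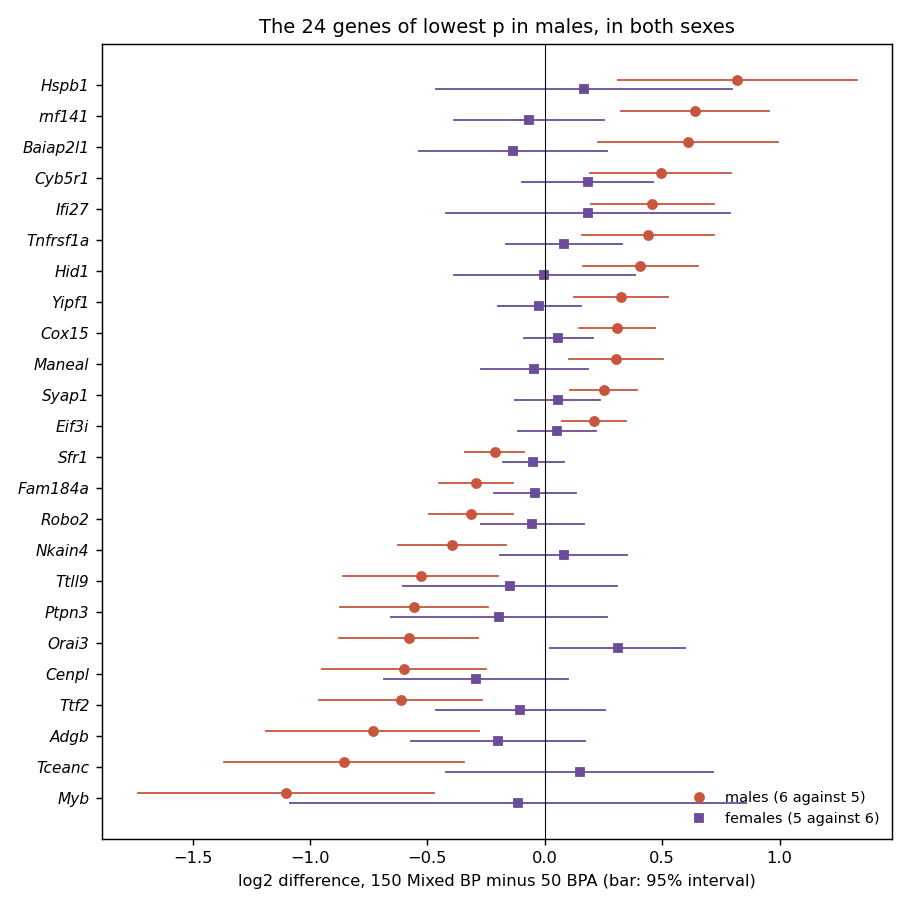
Log2 differences (150 µg/kg Mixed BP minus 50 µg/kg BPA) with 95% intervals are shown for the 24 genes of lowest p in males, in males (circles, 6 against 5 libraries) and in females (squares, 5 against 6). Male points were chosen by their p; 16 of the 24 female points share the male sign, and Orai3 lies at 0.31 in females against -0.58 in males.

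Maternal care was compared between the dams of the 11 litters, because it was recorded as a possible moderator. Licking and grooming scores were 391 ± 89.2 in the 5 BPA dams and 310.3 ± 122 in the 6 mixture dams (SD), and nest attendance scores were 1575 ± 411 and 1502 ± 284.5, in the units of the labels, which give none. Neither difference passed an exact two-sided permutation test over the 462 splits of the dams, with p = 0.268 for licking and grooming (adjusted over both measures 0.537) and p = 0.725 for nest attendance (adjusted 0.725). The lowest licking score, 91.9, belonged to the dam of mixture replicate 6. With both scores as covariates 0 genes were called and 726 had an unadjusted p under 0.05.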

How the data were processed

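Values are whole-number counts per gene that the authors deposited as 1 table per sex, both marked as having had outlying libraries removed. The submitters' processing notes list STAR 2.7.3a, cutadapt 1.18, bedtools 2.27.1, SAMtools 1.10 and, as the build, mRatBN7.2. The annotation, strand setting and options were not given in these sources. Per the labels' protocols, a kit for FFPE material was used on unfixed frozen tissue. All 45 columns were matched to samples by library name.

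The main test was edgeR 4.0.16 in R 4.3.3: a low-count filter (minimum count 10, minimum total 15), TMM scaling and robust quasi-likelihood F-tests with Benjamini-Hochberg adjustment at 0.05. The 4 male exposure groups shared 1 fit, females were fitted likewise, and the sex difference was tested over all libraries. Standard errors and 95% intervals follow from the F-test. Alternatives used DESeq2 1.42.0, limma 3.58.1 with sample weights, other scaling and filters, covariates, summed littermates and 11 fits that each left out 1 library. The tests were checked on simulated counts. Library preparation and any removal of duplicate reads are as deposited, so depth covers counting error only.

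Genes named are the 12 of lowest p per side with an assigned symbol (8 and 1 other identifiers were passed over), receptors of interest and the 2 members of lowest p of each of 32 lists with 655 genes, of which 652 are in the table. The members and lists were chosen with earlier results of these data known, and other genes are marked where they were picked by value. Some genes that this rule names are not reported here. Nothing in the labels says more of replication than 1 pup per litter and sex. P-values leave a shared cage out of account. With the strand setting unknown, antisense and overlapping genes may share reads.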

Additional observations from a re-analysis of the deposited data

Results flagged for a closer look

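Single libraries stood apart from the rest of their group for 10 of 180 groups checked (90 named genes in each of the 2 groups). Chance marks about 1 in 20 groups by this criterion, which sets the gap to the nearest library against the whole range. In the mixture group, replicate 4 was at 5.79 CPM for Hspb1 against 2.86 to 3.71 in the others, at 189 CPM for the astrocyte water channel Aqp4 against 113 to 125, and at 47.8 CPM for the endothelial junction gene Cldn5 against 34.6 to 39.5. Replicate 3 of that group was at 7.74 CPM for Orai3 against 5.33 to 5.97 and at 15.1 CPM for Esr1 against 10.0 to 11.3, and replicate 1 was at 8.45 CPM for Sdf2l1 against 5.23 to 6.39. In the BPA group, replicate 5 was at 491 CPM for Meis2 against 671 to 718 and at 351 CPM for Foxp1 against 624 to 690.4. Meis2 and Foxp1 are striatal markers, and the striatal sum of that library was the lowest of its group. Replicate 1 of the BPA group was at 10.9 CPM for Stard4 against 8.49 to 9.01, and replicate 3 was at 12.4 CPM for Mbd4 against 7.31 to 8.62.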

How the results depend on the processing

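The count of 0 genes called for males, for females and for the difference between sexes was the same under every alternative run. The 792 genes at an unadjusted p under 0.05 in males became 1196 in limma with sample weights and 1424 with no filter, which tests 34579 genes, and the cause was not tested for the first. Leaving out 1 library gave 570 (without mixture replicate 2) to 1269 (without BPA replicate 5). Summed littermates gave 580 and made the log2 differences of 22 of the 24 genes of lowest p over 1.5 times smaller; that fit adds the sisters and holds 5 litters a group. With replicate number as a block, 739 genes had an unadjusted p under 0.05 and 0 were called; same-numbered libraries deviated with correlations from -0.19 to 0.04 and none correlated best with its own number, so the pairing is only a shared number. Over the alternatives, 26 of 1968 values of named genes moved by 1 SD or more, and 0 were called. The SD is that between libraries of the same group. Of the 21 alternatives, 11 left out 1 library, which seldom moves a difference so far. A value can turn its sign within 1 SD, so this count is no measure of stability. The maternal care differences of -80.8 (licking and grooming) and -72.9 (nest attendance) were -52.1 and -168 over the 6 and 6 litters of both sexes, with exact permutation p of 0.450 and 0.437. Precision is limited for genes of 1 to 10 CPM, where 37.9% of intervals lay within 1.5-fold.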

Other observations

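The marker lists of further cell types and the remaining pathway lists are given here, with 0 members called in any of them. Among microglial markers 6 were above 0 and 6 below, with a median of 0.00. Their lowest p belonged to P2ry12, the purine receptor of resting microglia, with means of 41.2 ± 5.61 CPM after BPA (SD, n = 5) and 34.3 ± 2.48 CPM after the mixture (SD, n = 6) and a log2 difference of -0.26 ± 0.08 (SE). Astrocyte markers had 9 of 12 above 0 and a median of 0.11, and pan-neuronal markers 8 of 10 and 0.08. Oligodendrocyte and precursor markers had medians of 0.01 and 0.02, and endothelial markers one of -0.01. Red blood cell genes had 7 of 8 above 0 and a median of 0.17, with sums of 511 to 1010.5 CPM after BPA and 449 to 1401 CPM after the mixture. Of 10 choroid plexus genes 6 were tested, 5 of them above 0, and Clic6, a chloride channel gene of that epithelium, had 1.12 CPM after BPA and 1.95 after the mixture. Clic6 passed the low-count filter through libraries outside the BPA group, which reached at most 1.57 CPM.

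Synaptic vesicle genes had 16 of 26 above 0 and a median of 0.02, and genes of protein folding and endoplasmic reticulum stress 14 of 22 and 0.03. The 8 tested preoptic and hypothalamic markers had 6 above 0 and a median of 0.11. Nkx2-1, a transcription factor of the ventral forebrain, had 5.06 CPM after BPA and 7.34 after the mixture with a 95% interval of the log2 difference from -0.28 to 1.41. The 9 tested sex-linked genes had a median of 0.01.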
